A study of Arabidopsis thaliana with 12 samples.

Results

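Arabidopsis thaliana has 74 genes in the deposited table whose symbol begins with PCMP-H, out of 33602 genes listed. PCMP stands for plant combinatorial and modular proteins, and the letter H marks the DYW class of pentatricopeptide repeat (PPR) proteins. The members were taken by that symbol alone, though the family was chosen with earlier results of these data known. They lie on all 5 chromosomes, with 16 on chromosome 1, 11 on chromosome 2, 18 on chromosome 3, 11 on chromosome 4 and 18 on chromosome 5.

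PPR proteins are made in the cytosol from nuclear genes and enter chloroplasts or mitochondria, where their repeats bind organellar RNA in a sequence-specific way. Proteins of the DYW class carry a terminal domain, named for its closing residues aspartate, tyrosine and tryptophan, that acts as the cytidine deaminase of C-to-U RNA editing. A typical member recognises 1 or a few sites, so loss of a gene usually leaves particular organellar transcripts unedited. E-class PPR proteins lack the DYW domain and work with a DYW protein supplied in trans.

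The libraries came from the aerial parts of plants 6 days old, grown at about 21 °C with 16 h of light a day on medium with 1% sucrose, after stratification for 3 days at 4 °C. There were 12 libraries in 4 groups of 3. For tfIIfα1 and its wild type (titles 1171WTCol3) a stranded mRNA kit was used. For tfIIfα2 and its wild type (titles WTCol0) it was a stranded total RNA kit with removal of ribosomal RNA. The mutants are named as alleles of RAP74, which encodes the large subunit of the general transcription factor TFIIF of RNA polymerase II. The kind of lesion in each allele is not given in the labels. All 4 groups had the same age and growth conditions, and no other allele or agent is named. In its title the study speaks of selective control of PPR genes for organellar editing, so it may have singled out these genes on the same samples, and the counts below are not independent evidence of a direction.

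The closing codons show what defines the class, and for that reason the last 30 bases of the coding sequence are given for 11 members that the results below turn on. They were read from the RefSeq annotation of TAIR10.1, matched by AGI locus, on the coding strand from 5′ to 3′. Capitals mark the last 3 codons before the stop codon. Of the 74 members, 71 end in TGG, the tryptophan codon, as did 1.49% of all 26712 protein-coding genes with a RefSeq structure. In 48 members (64.9%) the last 3 codons spell aspartate, tyrosine and tryptophan in full, against 0.221% of all genes and 0 of the 101 E-class genes (symbol PCMP-E).
PCMP-H13 (chr4:8103645-8103674, minus strand): ggaaaatgttcctgcaatGACTTCTGGtaa
PCMP-H42 (chr4:7939611-7939640, minus strand): ggtgcttgctcttgtaaaGATTACTGGtaa
PCMP-H3 (chr4:8507794-8507823, minus strand): ggtctgtgttcttgcagaGATTACTGGtga
PCMP-H89 (chr5:4224953-4224982, plus strand): ggagtctgctcttgcggcGACCACTGGtga
PCMP-H8 (chr1:6366055-6366084, plus strand): ggggtttgttcttgtggaGATTACTGGtaa
PCMP-H81 (chr3:21255731-21255760, minus strand): ggaacttgctcctgtggaGACTATTGGtga
PCMP-H61 (chr5:26553712-26553741, plus strand): gggaaatgcagttgtgggGACTACTGGtaa
PCMP-H11 (chr1:11461864-11461893, minus strand): ggaacttgttcttgtaaaGATTATTGGtag
PCMP-H73 (chr1:5331682-5331711, plus strand): aaagatggagaatgttcaTGTGGAGATtag
PCMP-H56 (chr3:8021347-8021376, minus strand): aaaggcattggaaggtctGAATTTAACtga
PCMP-H31 (chr5:21414935-21414964, minus strand): tgcaaaagggaagaaacaTCATTTGTTtaa
The last 3 of these, PCMP-H73 (ECB2), PCMP-H56 (YS1) and PCMP-H31, are the members that do not end in TGG. PCMP-H13 and PCMP-H89 keep the closing tryptophan codon but differ from the others in the codon before it.

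Depth ran from 55915638 to 66711096 counts with the mRNA kit and from 33292996 to 37456773 with the total RNA kit, of which 12069295 to 14652749 fell on nuclear genes because plastid-encoded genes took 57.3% to 62.5%. A member had a median count of 87 to 193.5 per mRNA library and of 25.5 to 49.5 per total RNA library. For tfIIfα1, 2 of the 3 count columns have headers that name tfIIfα2, and they were placed in this group by a header prefix that only titles of mRNA libraries have. What this prefix stands for is not given in the labels. They are called replicates a and b here. Even values made up 72.2% and 69.6% of their counts, against 57.6% to 61.5% in the other mRNA libraries. The median change of the members is therefore also given without them. RAP74 itself did not overlap between mutant and wild type with either kit, and was lower in the mutants, with a log2 fold change of -0.38 ± 0.08 (SE; adjusted p = 0.00217) in tfIIfα1 and of -0.51 ± 0.12 in tfIIfα2 (adjusted p = 0.0659, and 0.0168 with the replicate number as a block). Its locus, AT4G12610, lies just before the chromosome 4 interval from AT4G12640 in which the wild type of the mRNA libraries is offset, described below. Whether that offset reaches RAP74 was not tested. The aerial markers (5 genes, among them RBCS1A) summed to 58620 to 65190 CPM in wild type and to 59100 to 60040 CPM in tfIIfα1. The sum hides differences within the list. CAB3, LHB1B1 and PSAF were called lower in edgeR, with log2 fold changes of -0.35, -0.41 and -0.43 (adjusted p = 0.000318, 0.000508 and 2.34e-05). RBCS1A (0.14) and CAB2 (0.01) did not pass. The 8 root markers summed to 1.59 to 6.60 CPM in wild type and to 2.41 to 4.94 CPM in tfIIfα1. CPM are counts scaled to library size after TMM normalization (edgeR). Whether replicates were separate cultures is not stated in the labels, and p-values cover only the spread between these samples, which may be technical. In bulk RNA, fewer cells of a type and less RNA per cell cannot be told apart.

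Most members were low in abundance. Per kilobase of coding sequence, the median of the 74 members was 1.43 CPM in the mRNA libraries of wild type and 0.509 CPM in its total RNA libraries. The 5 highest per kilobase were the same genes with both kits. In wild-type mRNA libraries PCMP-H66 (DYW2, which serves E-class proteins as their DYW partner) stood at 11.1 ± 0.63 CPM per kilobase (SD, n = 3), followed by PCMP-H57 at 8.74 ± 0.54, PCMP-H11 at 8.25 ± 0.29, PCMP-H38 (LPA66, an editing factor of plastid psbF) at 8.18 ± 0.19 and PCMP-H61 (CREF7, an editing factor of plastid ndhB) at 6.33 ± 0.47. The middle 3 of these lie within their spread of each other. In total RNA libraries of wild type the order was PCMP-H11 at 8.17 ± 0.48, PCMP-H66 at 7.20 ± 2.0, PCMP-H38 at 6.51 ± 0.68, PCMP-H57 at 5.84 ± 0.33 and PCMP-H61 at 4.43 ± 0.30, and neighbours down to PCMP-H57 again overlapped within their spread. At the other end, PCMP-H25 (AT2G34370) had 0 counts in 11 libraries and 1 count in a wild-type total RNA library. A count of 0 allows up to 3 counts, which is 0.0442 to 0.0964 CPM depending on the library, so PCMP-H25 was not detectable at this depth and was not tested.

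Of the 74 members, 3 lie between AT4G12640 and AT4G15550 on chromosome 4, an interval in which the wild type of the mRNA libraries is offset. Over all 271 tested genes of that interval the median log2 fold change was -0.997 in tfIIfα1, against -0.0022 over all 20371 tested genes, and it was -0.03 over the 240 interval genes tested in tfIIfα2. A difference of a member there from wild type in the mRNA libraries cannot be told apart from this offset, so these genes are given separately.

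PCMP-H13 (MEF35, an editing factor of mitochondrial transcripts) was at 6.15, 6.64 and 7.10 CPM in wild type and at 0.777, 1.67 and 0.657 CPM in tfIIfα1. Each mutant library was below each wild-type library, and the log2 fold change of -2.67 ± 0.24 (SE; adjusted p = 9.52e-07, edgeR) was the largest fall of any member. PCMP-H3 went from 4.97, 4.45 and 5.88 CPM to 0.731, 1.34 and 0.803 CPM, a log2 fold change of -2.41 ± 0.21. PCMP-H42 went from 11.3, 11.9 and 10.7 CPM to 3.44, 4.00 and 3.92 CPM, a log2 fold change of -1.58 ± 0.10. All 3 were called lower, with no overlap between the groups.

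Against the wild type of the total RNA libraries these genes were low as well, though none passed. PCMP-H13 was at 1.21, 0.734 and 0.769 CPM in wild type and at 0.466, 0.410 and 0.289 CPM in tfIIfα2, with no overlap. Its log2 fold change was -1.21 ± 0.32 (adjusted p = 0.0839, edgeR), and with the replicate number as a block the adjusted p was 0.0182. PCMP-H42 had -0.72 ± 0.24 (adjusted p = 0.14, and 0.0346 with the replicate block), while PCMP-H3 had -0.48 ± 0.34 with overlapping groups. The nearest members on the 2 sides of the interval were PCMP-H24 before it, with a log2 fold change of -1.28 in tfIIfα1, and PCMP-H1 (REME2) after it, with -1.38. Their coding ends start at chr4:1221116 and chr4:8951390, and those of PCMP-H42 and PCMP-H3 in the interval at 7939611 and 8507794. PCMP-H24 is thus far from the interval. PCMP-H1 (AT4G15720) lies closer, soon after the end of the interval at AT4G15550, and whether the offset reaches it was not tested. LOI1 (AT4G14850, also known as MEF11), a DYW protein gene with another symbol, lies in the interval too. It went from 8.06 ± 0.36 to 2.68 ± 0.05 CPM (SD, n = 3) in the mRNA libraries, a log2 fold change of -1.59 ± 0.11. In the total RNA libraries it was at 1.57 ± 0.21 CPM in wild type and at 1.42 ± 0.23 CPM in tfIIfα2.

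Outside the interval, transcripts of the DYW class were lower in tfIIfα1 than in wild type across most of the family. Of 71 members 70 passed the filter on low counts, and only PCMP-H25 did not. In edgeR's quasi-likelihood test, with Benjamini-Hochberg adjustment over all tested genes and a threshold of 0.05, 50 of the 70 were lower, 4 were higher and 16 did not pass. Among all tested genes 19.6% were called lower and 18.7% higher. The median log2 fold change of the 70 was -0.80, and 26 of them were at least 2-fold lower. At an unadjusted p under 0.05, in either direction, there were 59 of the 70, against 47.0% of all tested genes. The groups did not overlap, with the mutant lower, for 54 of the 70 (25.2% of all tested genes), and with the mutant higher for 6 (24.2%). Without replicates a and b, a fit of 1 tfIIfα1 library against 3 of wild type gave a median log2 fold change of -0.82. In that fit the spread comes from wild type alone, and the lone mutant library is assumed to vary like it.

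**Figure D1:**
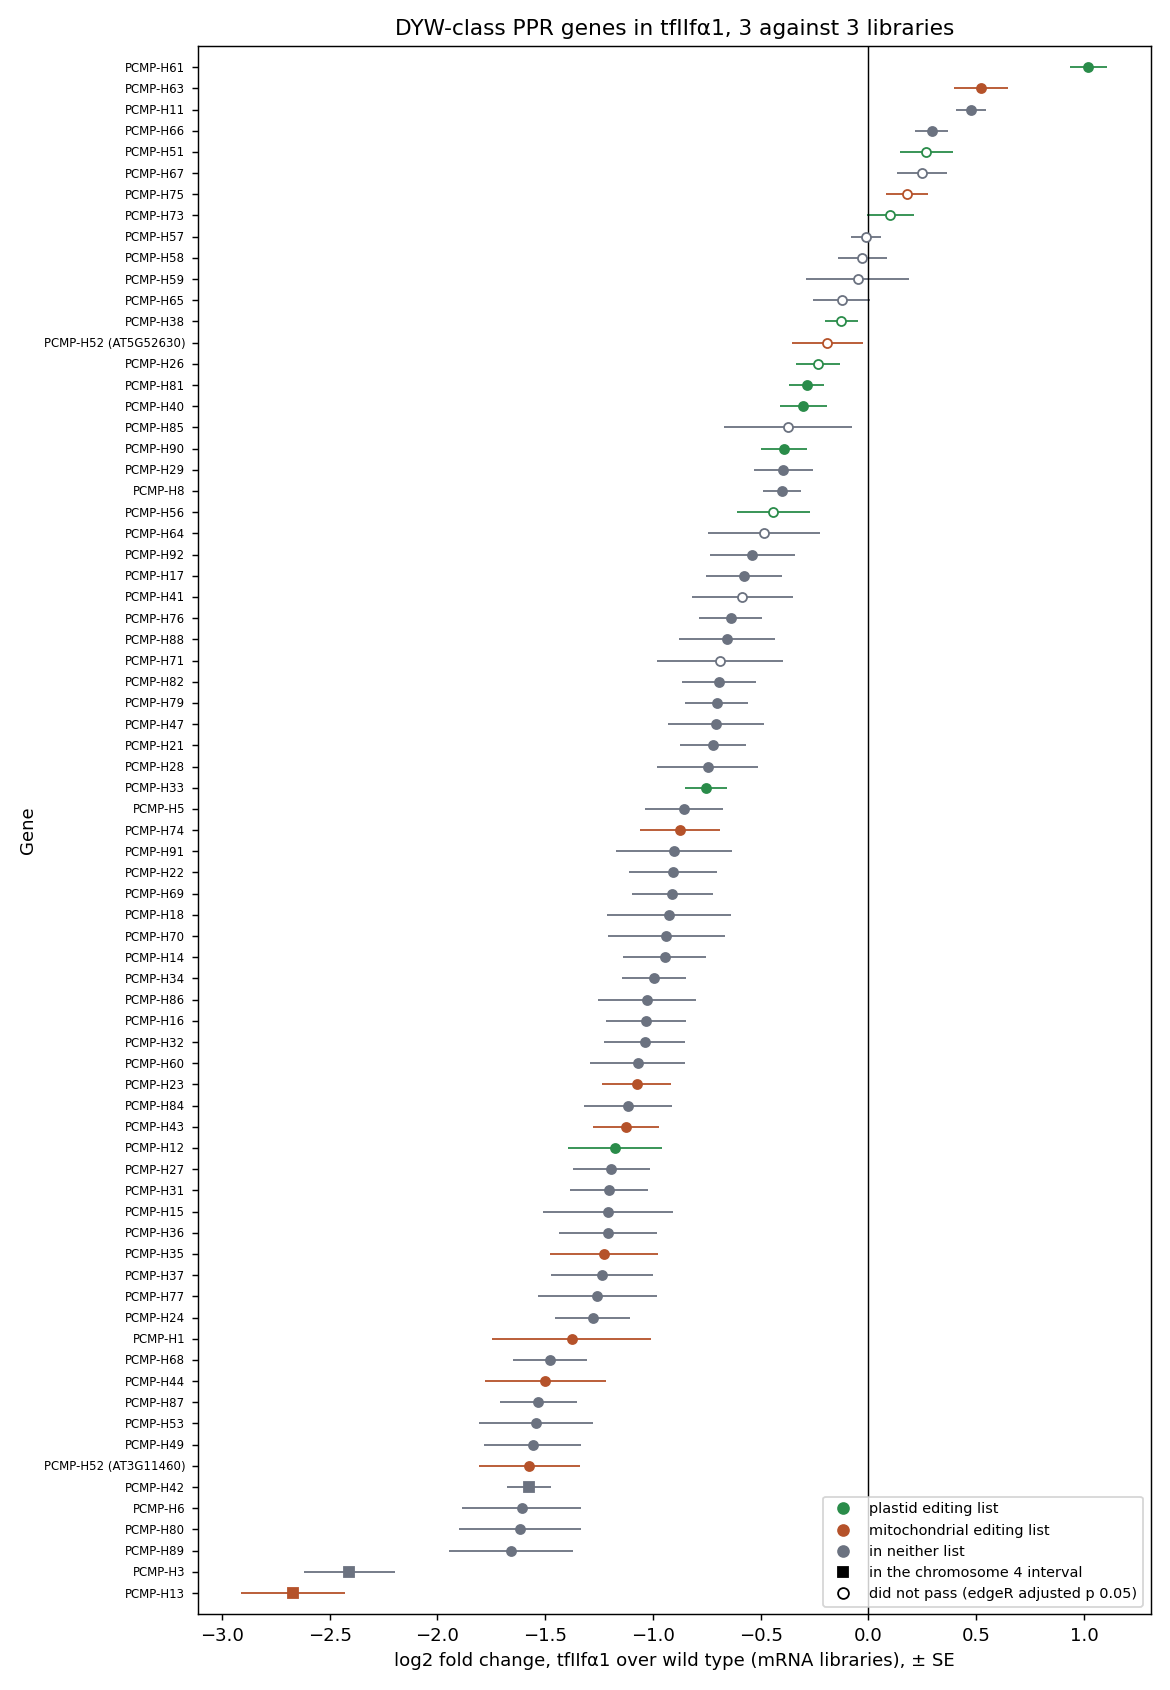
Log2 fold change of each tested DYW-class gene in tfIIfα1 over wild type (horizontal axis, points with standard error bars, 3 against 3 mRNA libraries), ordered by value. Filled points passed the test, squares lie in the chromosome 4 interval, and colours give the organelle list. Of 70 genes outside the interval, 50 filled points lie left of 0 and 4 right of it.

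Among the members with the smallest p, PCMP-H87 was at 3.72, 4.16 and 4.29 CPM in wild type and at 1.59, 1.05 and 1.57 CPM in tfIIfα1 (log2 fold change -1.53 ± 0.18, adjusted p = 1.3e-05). PCMP-H68 went from 3.81, 4.23 and 4.49 CPM to 1.20, 1.80 and 1.496 CPM (-1.48 ± 0.17, adjusted p = 1.3e-05). In both genes the lowest wild-type library was more than 2-fold above the highest mutant library. PCMP-H24 went from 3.36, 3.23 and 2.87 CPM to 1.10, 1.41 and 1.39 CPM (-1.28 ± 0.18), and PCMP-H49 from 1.73, 1.94 and 2.04 CPM to 0.684, 0.589 and 0.657 CPM (-1.56 ± 0.23). PCMP-H34, from 4.42, 3.87 and 4.94 CPM to 2.04, 2.24 and 2.37 CPM, had -0.99 ± 0.15. None of these genes was counted in the lists of known editing factors used here. PCMP-H34 (AT3G26782) overlaps AT3G26780, the entry for MEF14 that was left out of the mitochondrial list, on the same strand. Whether that entry meant PCMP-H34 was not settled. AT3G26780 was at 54.6 ± 1.2 CPM in wild type and at 54.5 ± 2.7 CPM in tfIIfα1 (SD, n = 3). Whether reads of the overlap were shared between the genes was not tested.

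The largest fall outside the interval was that of PCMP-H89, at 1.06, 1.46 and 1.22 CPM in wild type and at 0.451, 0.360 and 0.365 CPM in tfIIfα1 (-1.66 ± 0.29, 3.16-fold lower, adjusted p = 0.000422). Close behind were PCMP-H80 (3.07-fold lower) and PCMP-H6 (3.05-fold lower), which like PCMP-H89 were under 2 CPM in every library. The other members at least 2-fold lower were PCMP-H1, PCMP-H12, PCMP-H15, PCMP-H16, PCMP-H23, PCMP-H27, PCMP-H31, PCMP-H32, PCMP-H35, PCMP-H36, PCMP-H37, PCMP-H43, PCMP-H44, PCMP-H53, PCMP-H60, PCMP-H77, PCMP-H84, PCMP-H86 and AT3G11460, besides PCMP-H24, PCMP-H49, PCMP-H68 and PCMP-H87. A further 24 members were called lower by less than 2-fold, from -0.99 for PCMP-H34 to -0.29 for PCMP-H81.

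Editing factors of mitochondria, a list of 10 members outside the interval, had a median log2 fold change of -1.10, with 7 lower and 1 higher. Among all tested genes 19.6% were lower and 18.7% higher. PCMP-H43 (MEF22, needed for editing of nad3) went from 3.54, 3.99 and 3.53 CPM to 1.82, 1.64 and 1.60 CPM (-1.12 ± 0.15, adjusted p = 5.33e-05). PCMP-H23 (MEF26, for sites in cox3 and nad4) went from 4.35, 3.40 and 3.94 CPM to 1.70, 2.06 and 1.79 CPM (-1.08 ± 0.16). PCMP-H44 (REME1, for sites in nad2 and orfX) went from 1.22, 1.58 and 1.48 CPM to 0.373, 0.491 and 0.657 CPM (2.83-fold lower, adjusted p = 0.000757). In each of these genes all mutant libraries lay below all wild-type libraries. PCMP-H35 (MEF7) had -1.23 ± 0.25, PCMP-H1 (REME2) had -1.38 ± 0.37 and PCMP-H74 (OTP90) had -0.87 ± 0.19, and all 3 were called lower. PCMP-H1 lies soon after the chromosome 4 interval, as given above.

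The symbol PCMP-H52 stands for 2 genes, and they differed. AT3G11460 (MEF10, for a site in nad2) went from 2.83, 2.36 and 1.88 CPM to 0.622, 0.884 and 0.876 CPM (-1.57 ± 0.23, adjusted p = 0.000112). AT5G52630 (MEF1) was at 2.83, 2.82 and 2.41 CPM in wild type and at 2.33, 2.05 and 2.68 CPM in tfIIfα1, with overlapping groups (-0.19 ± 0.16, adjusted p = 0.384). PCMP-H75 (MEF8) did not pass (0.18 ± 0.10), and its close relative PCMP-H63 (MEF8S) was higher, as given below.

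The 11 editing factors of plastids had a median of -0.29, with 5 lower and 1 higher, where 19.6% and 18.7% of all tested genes were. Their summed level was 89.8 ± 1.5 CPM in wild type and 90.0 ± 0.56 CPM in tfIIfα1 (SD, n = 3). The sum includes PCMP-H61 (CREF7), the 1 that was higher, with a log2 fold change of 1.02. It therefore hides falls of other members, as 8 of the 11 values were below 0 and 3 above. The sum of the mitochondrial list went from 30.2 ± 1.2 to 23.4 ± 1.3 CPM, and that of all 71 members outside the interval from 300.9, 300.2 and 310.1 CPM to 249.5, 258.6 and 256.8 CPM. In wild type the plastid list thus stood at a higher level than the mitochondrial list. Members of low level were called lower more often, as given below, and whether the lists differ apart from level was not tested. PCMP-H33 (OTP81 or QED1, an editing factor of several plastid sites) had the smallest p of the plastid genes that were lower. It was at 10.7, 10.6 and 10.6 CPM in wild type and at 5.49, 6.75 and 6.62 CPM in tfIIfα1 (-0.76 ± 0.10, adjusted p = 3.4e-05). PCMP-H12 (OTP82, for sites in ndhB and ndhG) went from 2.36, 1.87 and 2.02 CPM to 0.809, 1.11 and 0.839 CPM (-1.18 ± 0.22). These were the plastid genes that fell most, with the mutant libraries below all wild-type libraries.

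The other plastid factors called lower changed by little. PCMP-H81 (OTP84, for sites in psbZ, ndhB and ndhF) went from 10.7, 11.4 and 11.1 CPM to 8.63, 9.46 and 9.09 CPM (-0.29 ± 0.08, adjusted p = 0.0135). PCMP-H90 (RARE1, for accD) went from 8.55, 7.25 and 9.11 CPM to 6.53, 6.09 and 6.38 CPM (-0.39 ± 0.11). PCMP-H40 (CRR22, for sites in ndhB, ndhD and rpoB) went from 6.08, 6.21 and 6.34 CPM to 5.37, 4.52 and 5.24 CPM (-0.30 ± 0.11, adjusted p = 0.0412), a call that ended when any 1 library other than tfIIfα1 replicate 1 was left out (adjusted p from 0.0391 to 0.323 over its alternatives). Neither PCMP-H40 nor PCMP-H90 passed in the fit without replicates a and b, which has 1 tfIIfα1 library and the spread of wild type. PCMP-H26 (OTP85), PCMP-H38 (LPA66), PCMP-H51 (CRR28), PCMP-H56 (YS1) and PCMP-H73 (ECB2) did not pass, with log2 fold changes from -0.44 (PCMP-H56) to 0.27 (PCMP-H51). PCMP-H56 had an adjusted p of 0.0509, which was 0.0217 under the alternative that favoured it most.

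**Figure D2:**
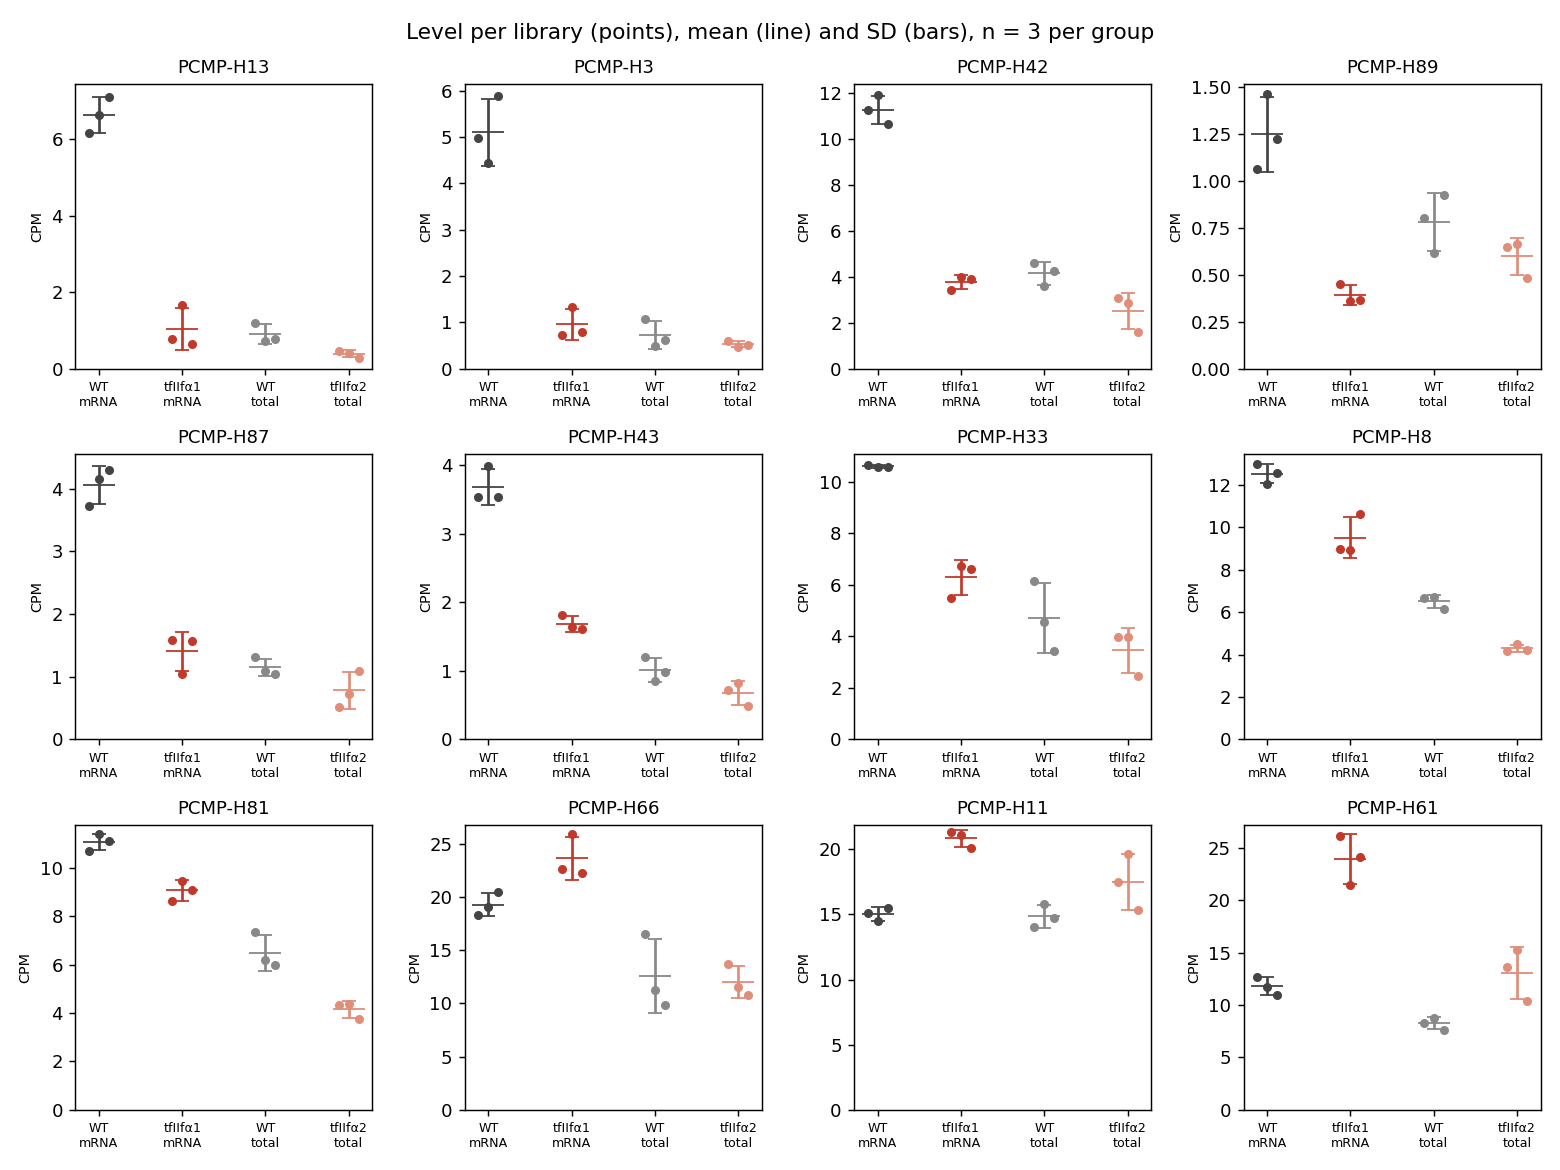
Level in CPM (vertical axes from 0) of 12 DYW-class genes in each of the 12 libraries, as points by group, with the mean as a line and the SD as bars (n = 3). PCMP-H13, PCMP-H3 and PCMP-H42 lie in the chromosome 4 interval, PCMP-H89 to PCMP-H81 were lower in tfIIfα1, and PCMP-H66, PCMP-H11 and PCMP-H61 were higher.

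A small number of members went the other way. PCMP-H61 (CREF7) was at 12.7, 11.7 and 10.96 CPM in wild type and at 26.2, 21.4 and 24.1 CPM in tfIIfα1, with every mutant library above every wild-type library. It was 2.03-fold higher (log2 fold change 1.02 ± 0.09, adjusted p = 6.24e-07), the largest rise of any member. PCMP-H11 rose from 15.1, 14.5 and 15.5 CPM to 21.4, 21.1 and 20.1 CPM (0.47 ± 0.07, adjusted p = 0.000107). PCMP-H63 (MEF8S, for sites in mitochondrial transcripts) rose from 4.41, 5.11 and 4.15 CPM to 6.61, 7.25 and 5.73 CPM (0.52 ± 0.12, adjusted p = 0.00405). Reads could be split between PCMP-H63 and its relative PCMP-H75, so their values are uncertain to that extent. PCMP-H66 (DYW2) rose from 18.3, 19.1 and 20.4 CPM to 22.6, 25.9 and 22.3 CPM (0.29 ± 0.08, adjusted p = 0.00807), and did not pass in the fit with 1 tfIIfα1 library, that without replicates a and b.

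All 4 members that rose overlap a gene on the opposite strand in the RefSeq annotation. The kits keep strand, but the strand setting of the counting is not given in the sources used here. If strand was not used, reads of the member and its antisense neighbour could not be told apart. For PCMP-H61, PCMP-H11 and PCMP-H63 the neighbour's value was above 0 and smaller than the member's, and for PCMP-H66 it was below 0. PCMP-H61 lies inside AT5G66530, which was at 135.4 ± 6.5 CPM in wild type and at 150.8 ± 3.0 CPM in tfIIfα1 (log2 fold change 0.15 ± 0.06). PCMP-H11 lies inside AT1G31910, with 0.20 ± 0.06. The neighbour of PCMP-H63, AT4G32460, had 0.20 ± 0.13, and that of PCMP-H66, CML1, had -0.38 ± 0.15. Of the 45 tested members that overlap no gene 32 were lower and 0 higher, with a median of -0.72. Of the 25 that overlap a gene 18 were lower and 4 higher, with a median of -0.91. Among all tested genes 19.6% were lower and 18.7% higher.

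The remaining members that did not pass were PCMP-H41, PCMP-H57, PCMP-H58, PCMP-H59, PCMP-H64, PCMP-H65, PCMP-H67, PCMP-H71 and PCMP-H85, with log2 fold changes between -0.69 (PCMP-H71) and 0.25 (PCMP-H67). PCMP-H57, among the most abundant members, was at 17.4, 19.0 and 19.6 CPM in wild type and at 18.7, 18.3 and 18.4 CPM in tfIIfα1. Its groups overlapped, with a log2 fold change of -0.01 ± 0.07.

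In tfIIfα1 members of low level were called lower more often than members of high level. Bands of mean level over the 6 mRNA libraries were set after the values had been seen. Under 5 CPM, 45 of 54 members were lower and 0 higher, with a median log2 fold change of -0.97. From 5 CPM up, 5 of 16 were lower and 4 higher, with a median of -0.02. Of all tested genes 15.9% were lower and 11.4% higher under 5 CPM, and 21.6% were lower and 22.5% higher from 5 CPM up. Since a gene that falls also lowers its own mean, the level in wild-type total RNA libraries, which took no part in this comparison, was set against the change in tfIIfα1. Across the 70 members Pearson's r was 0.75 and Spearman's rho 0.66, and across all 20100 tested genes outside the interval they were 0.01 and 0.06. These are descriptions across genes, which share libraries and are not independent replicates. The calls in tfIIfα2 did not follow this order, though the medians did. By mean level over the 6 total RNA libraries, 0 of 58 members under 5 CPM and 2 of 9 from 5 CPM up were lower, with medians of -0.41 and -0.06. Of all tested genes 1.5% and 1.9% were lower in these bands. Against the level in wild-type mRNA libraries the change of 67 members in tfIIfα2 had r = 0.33 and rho = 0.31, and that of all 18623 tested genes outside the interval -0.11 and -0.04.

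**Figure D3:**
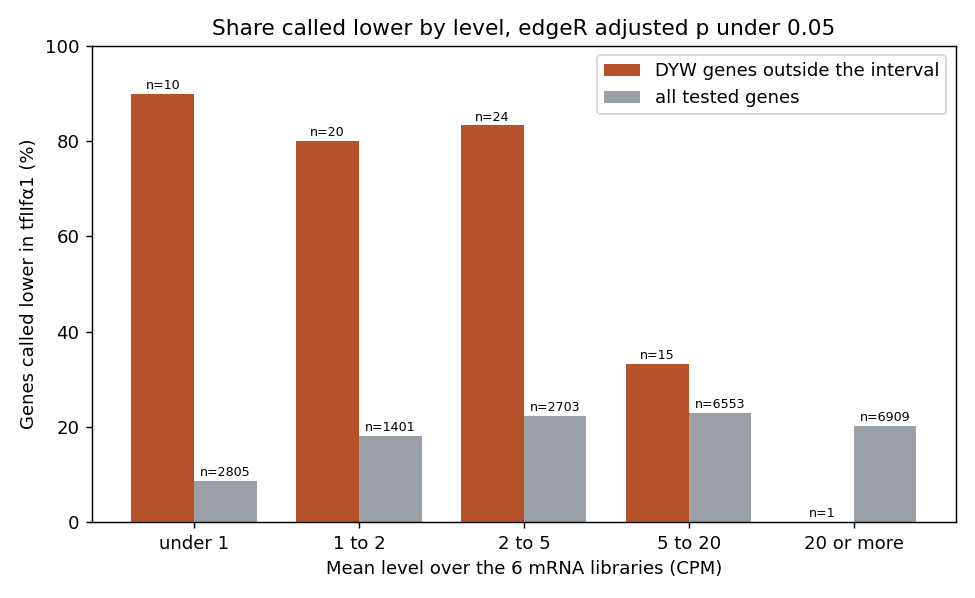
Share of genes called lower in tfIIfα1 (vertical axis, %, edgeR adjusted p under 0.05) by band of mean level over the 6 mRNA libraries (horizontal axis, CPM), for DYW-class genes outside the interval and all tested genes, with the number of genes above each bar. The share of DYW-class genes was 90.0%, 80.0% and 83.3% in the bands under 5 CPM and 33.3% from 5 to 20 CPM, where all tested genes had 23.0%.

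In tfIIfα2, measured in the total RNA libraries, DYW-class transcripts were also mostly below wild type, with a median nearer to 0, and few passed. Of 71 members outside the interval 67 were tested, leaving out PCMP-H1, PCMP-H15, PCMP-H25 and PCMP-H91 for low counts. In edgeR 2 of the 67 were lower and 0 higher, where 1.72% and 1.48% of all 18863 tested genes were, and 15 had an unadjusted p under 0.05 (22.1% of all tested genes). DESeq2 called 1 higher. The median log2 fold change was -0.38, against -0.0004 over all tested genes, and 59 of the 67 values were below 0. The groups did not overlap for 24 with the mutant lower (15.6% of all tested genes) and for 1 with the mutant higher (13.1%). The spread was wider here than in the mRNA libraries, with a biological coefficient of variation of 0.184 against 0.0827.

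PCMP-H8, for which no editing site is given here, was at 6.68, 6.70 and 6.15 CPM in wild type and at 4.16, 4.48 and 4.21 CPM in tfIIfα2 (log2 fold change -0.60 ± 0.11, adjusted p = 0.0367). PCMP-H81 (OTP84) was at 7.33, 6.17 and 5.97 CPM and at 4.32, 4.39 and 3.76 CPM (-0.64 ± 0.13, adjusted p = 0.0488). Every mutant library was below every wild-type library in both genes. Each of these calls ended when any 1 library was left out, with adjusted p up to 0.129 for PCMP-H8 and 0.136 for PCMP-H81. Both genes were also lower in tfIIfα1, PCMP-H8 from 13.01, 12.1 and 12.6 CPM to 8.97, 8.94 and 10.6 CPM (-0.40 ± 0.09).

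Libraries of the same number deviated together in the total RNA kit, and with the replicate number as a block 8 members were lower and 1 higher, where 9.18% and 9.56% of all tested genes were. The 8 were PCMP-H8, PCMP-H26 (OTP85), PCMP-H28, PCMP-H29, PCMP-H53, PCMP-H57, PCMP-H65 and PCMP-H81. The member that rose was PCMP-H61 (CREF7), at 8.31, 8.78 and 7.66 CPM in wild type and at 13.7, 15.2 and 10.4 CPM in tfIIfα2 (0.66 ± 0.15 with an adjusted p of 0.0624, and of 0.00468 with the replicate block). Its groups did not overlap, as in tfIIfα1. PCMP-H57, at 12.2, 13.2 and 11.9 CPM in wild type and at 9.41, 10.8 and 9.22 CPM in tfIIfα2, had -0.35 ± 0.11 and an adjusted p of 0.027 with the block.

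Outside the interval, the largest fall in tfIIfα2 was that of PCMP-H71, from 0.527, 0.499 and 0.707 CPM to 0.233, 0.316 and 0.289 CPM (-1.05 ± 0.30, adjusted p = 0.0993), which did not pass. The 71 members summed to 191.3, 170.6 and 164.0 CPM in wild-type libraries and to 161.4, 163.0 and 137.6 CPM in those of tfIIfα2, so the groups did not overlap. The 11 plastid factors had a median of -0.36 and the 9 tested mitochondrial factors of -0.44. The 8 root markers summed to 0.400 to 1.09 CPM in wild type and to 1.76 to 3.03 CPM in tfIIfα2, without overlap and with no marker at 0 in all libraries, and their part in these values was not tested. The sums of the aerial markers overlapped, with 8419 to 15400 CPM in wild type and 8222 to 14990 CPM in tfIIfα2. Of these markers PSAF alone did not overlap and was lower (-0.62 ± 0.19, edgeR adjusted p = 0.115, and 0.0151 with the replicate block).

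The 2 mutants were then set side by side. The wild types were those of each kit, so allele, kit and wild type cannot be told apart. Of 67 members tested in both, 55 were below 0 in both and 4 above 0 in both, and 45 were further below in tfIIfα1. Across these 67 members the fold changes had r = 0.47 and rho = 0.34, lower than the 0.70 and 0.68 across all 18238 tested genes outside the interval. In the interaction test over 12 libraries 0 of 70 members outside the interval and 0 of 3 inside passed in edgeR (0.772% of all tested genes), with 20 and 3 at an unadjusted p under 0.05 (8.85% of all tested genes).

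**Figure D4:**
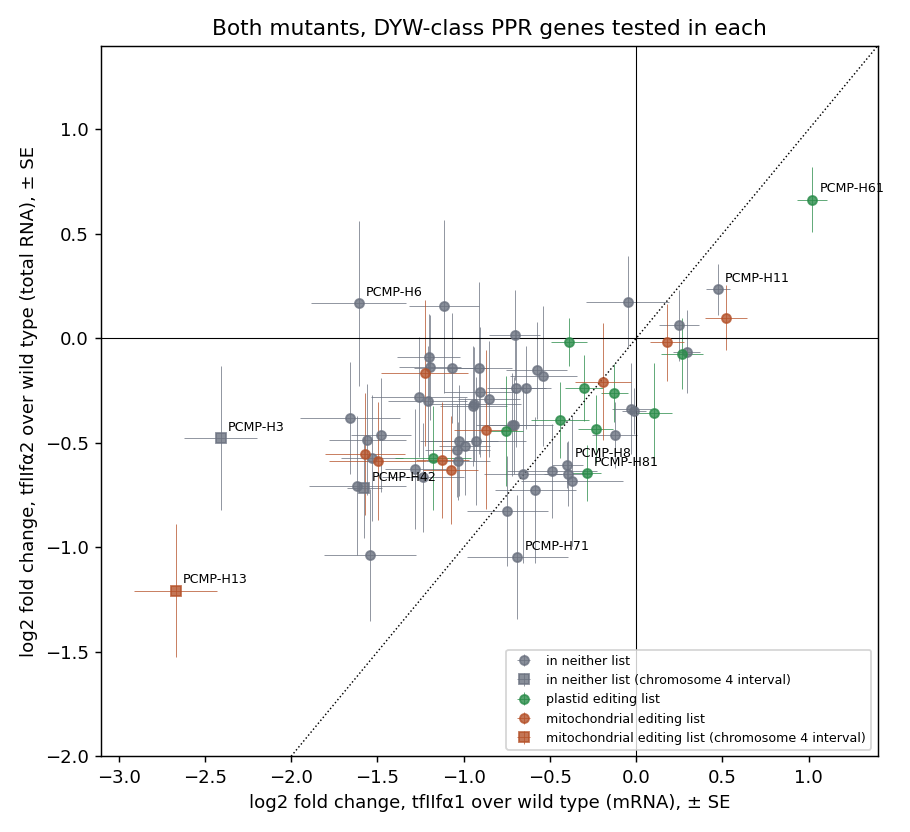
Log2 fold change in tfIIfα1 (horizontal axis, mRNA libraries) against that in tfIIfα2 (vertical axis, total RNA libraries) for DYW-class genes tested in both, with standard error bars, where the dotted line marks equal change. Most points lie in the lower left, to the left of the dotted line, and PCMP-H61 is the point farthest up and right.

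The smallest interaction p was that of PCMP-H3 in the interval, with a difference of -1.92 ± 0.44 on the log2 scale (adjusted p = 0.0859, and 0.00388 in DESeq2). Outside the interval PCMP-H6 had the largest difference, -1.76 ± 0.47 (adjusted p = 0.177). It was at 0.327, 0.206 and 0.400 CPM in wild-type total RNA libraries and at 0.233, 0.473 and 0.353 CPM in tfIIfα2, with overlapping groups, where tfIIfα1 had it 3.05-fold lower. By p, though not by size, the next outside the interval were PCMP-H27 (-1.05 ± 0.28), PCMP-H31 (-1.10 ± 0.30) and PCMP-H89 (-1.27 ± 0.35). DESeq2 called PCMP-H31 alone among the members outside the interval (adjusted p = 0.0413), where it called 1.62% of all tested genes.

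Members share a compact gene structure with the E class. In RefSeq 57 of 74 (77.0%) have a single exon, as do 78.2% of the E-class genes and 20.1% of all protein-coding genes, and the median coding length was 2065.5 bases, against 1875 in the E class and 1065 in all. Of 2856 tested genes of any kind with a single exon 18.6% were lower in tfIIfα1, with a median of 0.01, and of 16634 with more exons 20.2% were. Of 55 tested single-exon members 41 were lower and 4 higher (median -0.85), and of the 15 members with more exons 9 were lower and 0 higher (median -0.76). In the 250 bases before the annotated transcript start, the motif TGGGCC or TGGGCT, searched on both strands, was found in 24.3% of members, 24.8% of E-class genes and 19.7% of all genes. AAACCCTA was in 4.05%, 7.92% and 4.81%, and TATAAA in 33.8%, 48.5% and 47.6%. A 5′ untranslated region is annotated for 56 of 74 members, 81 of 101 E-class genes and 22876 of all 26712 genes. Without one the window ends at the start codon, so the windows compared are not all alike. Of the 18 members outside the interval with TGGGCC or TGGGCT 16 were lower in tfIIfα1 (median -1.08), and of the 52 tested members without it 34 were lower and 4 higher (median -0.73). The shares over all tested genes were 19.6% lower and 18.7% higher. These matches are letters in a window, and the difference between the sets was not tested.

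E-class genes, the nearest relatives of the DYW class, were also mostly lower in tfIIfα1. Of 100 tested outside the interval 76 were lower and 1 higher, with a median of -0.92, where 19.6% and 18.7% of all tested genes were lower and higher. In tfIIfα2 4 of 96 were lower, with a median of -0.48, where 1.72% of all tested genes were lower and 1.48% higher. With the replicate block 13 of 96 were lower, where 9.18% of all tested genes were lower and 9.56% higher. Of 181 other tested genes described as PPR proteins, without a PCMP symbol, 43 were lower and 32 higher in tfIIfα1 (median -0.03). In tfIIfα2 5 of 177 were lower and 1 higher (median -0.21), or 24 and 5 with the replicate block. Whether the classes differ was not tested.

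DYW proteins with another symbol were a list of 8, of which 5 were lower and 1 higher in tfIIfα1, where 19.6% and 18.7% of all tested genes were. EMB2261 went from 9.74 ± 0.31 to 5.17 ± 0.65 CPM (SD, n = 3; -0.92 ± 0.11), EMB2758 had -0.83 ± 0.17, ELI1 had -0.67 ± 0.13, DYW9 (MEF29) had -0.64 ± 0.17, and LOI1 is given above. OTP86 and DOT4 did not pass. DYW1, the DYW domain protein that works in trans with the E-class factor CRR4 on plastid ndhD, rose from 14.2 ± 0.70 to 24.4 ± 1.4 CPM (0.78 ± 0.07, adjusted p = 1.76e-06). In tfIIfα2 0 of the 8 passed, and DYW1 was at 0.63 ± 0.15 (adjusted p = 0.0628, and 0.0132 with the replicate block). EMB2261 was at -0.74 ± 0.23 (adjusted p = 0.114, and 0.0192 with the replicate block), so that with the block 1 of the 8 was lower and 1 higher (9.18% and 9.56% of all tested genes).

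Proteins that work with DYW factors in the editosome, a list of 18 genes outside the PPR family, were mostly on the other side of 0. In tfIIfα1 10 were higher and 2 lower, where 18.7% and 19.6% of all tested genes were, with a median of 0.21 for the list. MORF4 (0.91 ± 0.13) and MORF5 (0.44 ± 0.07), both of the MORF family that binds PPR proteins, were among those that rose. The 2 that fell were PPOX1 (-0.53 ± 0.06), a tetrapyrrole enzyme that also takes part in plastid editing, and RBG2 (ORRM5), which lies in the chromosome 4 interval. In tfIIfα2 PPOX1 fell by 0.68 on the log2 scale (adjusted p = 0.0341) and 0 of the 18 rose, while the median was 0.19. With the replicate block 3 were lower and 1 higher, where 9.18% and 9.56% of all tested genes were. PPOX1 fell, AT3G20930 (ORRM1, adjusted p = 0.0126) and AT1G73530 (ORRM6, adjusted p = 0.0319) were lower, and MORF5 (adjusted p = 0.0488) was higher. The PPR protein gene EMB1796 (NUWA), whose product works with DYW2, did not pass in either mutant (0.18 ± 0.09 and -0.28 ± 0.22).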

How the data were processed

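Whole-number counts per gene for 33602 genes, deposited by the authors without normalization per the file headers, were analysed in 12 libraries. Bowtie2 2.2.9, FastQC 0.11.5, edgeR 3.20.1 and the build TAIR10 are named in the submitters' processing notes, and the counting tool and strand setting are not given in the sources used here. Groups came from the labels. A further 24 per-library columns were not used.

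In R 4.3.3, counts were filtered with filterByExpr, scaled by TMM and fitted with the quasi-likelihood test of edgeR 4.0.16, each mutant against the wild type of its kit, with Benjamini-Hochberg adjustment over all tested genes at 0.05. The SE was computed as the size of the log2 fold change divided by the square root of its F. The interaction was fitted over 12 libraries. Replicate libraries all differed by more than sampling noise, at 10.1 to 49.8 in chi-square divided by its degrees of freedom. Same-numbered total RNA libraries, numbered in their titles, deviated together from their group means (correlations over genes 0.64, 0.23 and 0.53), and results with the replicate block stand beside the members and lists whose calls or counts of calls change with it. The scripts were tested on simulated data. Alternatives were RLE factors, other filters and thresholds, DESeq2 1.42.0, organelle or interval genes removed, and libraries left out. Gene structure, coding ends and motifs came from RefSeq TAIR10.1, matched by AGI locus for all 74 members, while the counts were made on TAIR10. The members and lists were chosen with earlier results of these data known. Named genes were all members in the interval, the 8 lower and 4 higher with the smallest p per comparison, those with the 5 highest levels per kilobase, the largest changes, and up to 8 per editing list by smallest p. PCMP-H80 and PCMP-H6, the interaction genes after PCMP-H3, and members named in lists of all calls were added after their values were seen. A gene listed as MEF14 was left out because its deposited description names another protein.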

Additional observations from a re-analysis of the deposited data

Results flagged for a closer look

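LOI1, a DYW protein gene in the chromosome 4 interval, was called lower in tfIIfα1 and was not called in tfIIfα2. The difference between the mutants was -1.43 on the log2 scale and passed the interaction test (adjusted p = 0.00314, edgeR). It carries the offset of the wild type of the mRNA libraries in that interval, and allele, kit and wild type cannot be told apart.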

How the results depend on the processing

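Outside the interval, the tfIIfα1 counts moved little: leaving out 1 library gave 43 to 48 lower and 4 to 5 higher, with a median of -0.844 to -0.769. A filter of at least 1 CPM, which keeps fewer low genes, gave a median of -0.704. In tfIIfα2 the number called lower, 2, was 1 with RLE factors, 5 in a fit over 12 libraries, 8 with the replicate block and 0 at a threshold of 0.01. It was 0 without any 1 library (0 to 0 over the leave-one-out fits). The number called higher, 0, was 1 in DESeq2, in the fit over 12 libraries and with the replicate block, and 0 to 1 without 1 library. In the interval, members lower in tfIIfα2 were 1 in the fit over 12 libraries and 2 with the replicate block. The interaction called 1 member outside in DESeq2 and 0 to 1 without 1 library, and in the interval 1 in DESeq2, 1 with the replicate block for total RNA and 0 to 2 without 1 library. The cause of these changes was not tested. The other 180 summary values kept within 1.5 times the main count or within the replicate spread. Of the values for single members, 825 kept their side of the threshold, 29 lost the call, 15 gained it and 0 reversed. No paired analysis was possible because the replicate numbers of 2 tfIIfα1 columns are ambiguous, for tfIIfα1 only. Total RNA counts per member limit what tfIIfα2 can show.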
